A study of Mus musculus with 12 samples.

Results

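The Hox genes of the adult mouse spinal cord are described here, cluster by cluster and by paralog number. The members are the genes whose symbol is Hox, a cluster letter from a to d and a number, and 38 of the 38924 genes in the tables met that rule. Whole spinal cord RNA was sequenced from 12 mice at 8 weeks of age in 4 groups of 3: P278KY females (mice 3, 4 and 9), P278KY males (6, 7 and 8), WT females (1, 2 and 10) and WT males (5, 11 and 12). P278KY mice were heterozygous for the P278KY allele of Gars, which encodes glycyl-tRNA synthetase and is mutated in a form of Charcot-Marie-Tooth neuropathy, and WT mice carried no mutant allele. All 12 mice shared a mixed B6J;CAST strain background. The labels do not give the extent of cord taken from each mouse. Transcript levels are given in TPM (the authors' values, scaled for transcript length and library total), and 36 of the 38 members had enough counts to enter the test, with Hoxb1 and Hoxd12 left out.

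Hox genes encode homeodomain transcription factors that give cells their position along the head-to-tail axis. They lie in 4 clusters, and their order along each cluster matches the order of their expression along the body, so that low-numbered paralogs begin in the hindbrain and the highest-numbered ones are limited to the tail end. In the spinal cord, paralogs of the middle numbers are active at cervical and thoracic levels, where they set apart motor neurons of the forelimb and trunk, and paralogs from the tenth upward are active in lumbar and sacral cord. Hox proteins bind DNA with cofactors of the TALE family, and the clusters are held open or closed by Trithorax and Polycomb proteins.

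The 12 libraries held 26982140 to 39339999 expected counts each. Neural and glial markers were high in each library, with summed levels of 22448 to 27490 TPM in P278KY mice and 22131 to 30183 TPM in WT mice over 9 genes. The forebrain and midbrain gene Otx2 was listed at 0 in every mouse. The summed level of 9 forebrain and midbrain markers was 7.44 to 8.48 TPM in P278KY mice and 6.69 to 7.99 TPM in WT mice, and that of 10 hindbrain markers was 6.18 to 8.15 TPM in P278KY mice and 4.70 to 8.83 TPM in WT mice. Of these 10, 9 averaged under 1 TPM, and Egr2, which is also a Schwann cell marker, averaged 3.07 TPM. The hindbrain sum thus does not measure hindbrain tissue. Skeletal muscle RNA varied most. Its sum over 15 markers was 213.5 to 4623 TPM in P278KY mice and 200.9 to 11879 TPM in WT mice. It was highest in mice 1 to 4, all female, at 11879 (WT female 1), 3142, 4623 and 1870 TPM. Mice 5 to 12 had 200.9 to 490.2 TPM. Bulk RNA cannot separate fewer cells of a type from less RNA per cell, which holds for every level below.

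Adult cord contained RNA of most Hox genes. Of the 38 members, 33 (86.8%) averaged at least 1 TPM over the 12 mice, against 42.7% of all genes in the tables. A mean above 50 TPM was reached by 4 members, while 19 lay between 10 and 50 TPM, 10 between 1 and 10 TPM and 5 below 1 TPM. By the mean over the 12 mice Hoxa7 was the highest of HoxA, Hoxb8 of HoxB, Hoxc10 of HoxC and Hoxd8 of HoxD, as the plot of levels by paralog number shows. The summed level of all Hox genes was 949.1 to 1086 TPM (median 1015) in P278KY mice and 815.7 to 983.0 TPM (median 930.9) in WT mice, ranges that overlapped.

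**Figure D1:**
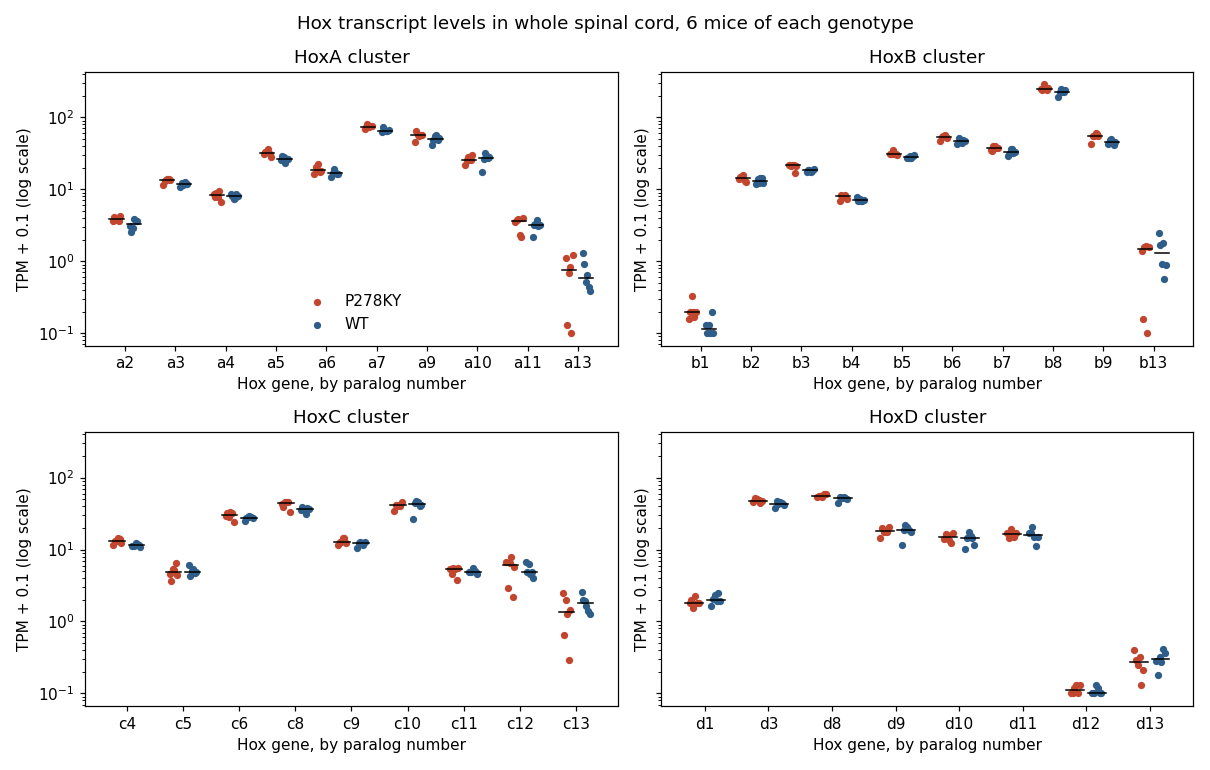
TPM plus 0.1 of 37 of the 38 Hox genes on a log axis, by cluster (panels A to D) and paralog number, with 1 point per mouse (6 P278KY, left, and 6 WT, right) and a line at the median of each genotype. Hoxb8 stands highest, at 238.3 to 287.7 TPM in P278KY mice and 194.4 to 244.7 TPM in WT mice, and Hoxd12 has the lowest mean, at 0 to 0.03 TPM in both genotypes.

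Paralogs 6 to 8, which pattern brachial and thoracic levels in the embryo, made up the largest share of the Hox RNA in every mouse. These 8 genes held 54.2% to 56.6% of the summed Hox TPM in P278KY mice and 53.3% to 55.6% in WT mice. Paralogs 10 to 13, which are lumbar, sacral and caudal in the embryo, held 10.03% to 12.66% in P278KY mice and 11.1% to 13.8% in WT mice with 12 genes. Paralogs 1 to 3 held 9.47% to 10.6% in P278KY mice and 9.22% to 10.4% in WT mice, and paralogs 4 and 5 held 8.74% to 9.92% in P278KY mice and 8.81% to 10.6% in WT mice. The Hoxd3 row, 45.7 of the 97.3 TPM that paralogs 1 to 3 averaged over the 12 mice, also counts transcripts of Hoxd4. The split between paralogs 1 to 3 and paralogs 4 and 5 is therefore not resolved. The 4 paralogs numbered 9 held 11.9% to 14.9% in P278KY mice and 12.98% to 14.46% in WT mice. The ranges of the genotypes overlapped in every band.

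By cluster, HoxB held the largest share, 45.3% to 47.8% in P278KY mice and 44.5% to 46.7% in WT mice. That lead rested on Hoxb8, which averaged 240.3 TPM of the 446.4 TPM of HoxB over the 12 mice, where HoxA averaged 224.9 TPM. HoxA held 22.2% to 24.0% in P278KY mice and 23.0% to 23.5% in WT mice. HoxC held 14.2% to 15.9% in P278KY mice and 15.4% to 15.9% in WT mice, and HoxD held 14.4% to 16.0% in P278KY mice and 14.8% to 16.3% in WT mice. HoxC and HoxD therefore held close shares in both genotypes, although HoxC counts 9 members and HoxD 8. The clusters lie on chromosome 6 (HoxA), chromosome 11 (HoxB, 96194316 to 96368256), chromosome 15 (HoxC, 102921103 to 103036852) and chromosome 2 (HoxD, 74668310 to 74765142) of GRCm38, and span 96.83 to 173.9 kb.

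Hoxb8, which acts in dorsal horn neurons and in a lineage of microglia, was the most abundant Hox transcript in each of the 12 mice. It lay at 238.3, 249.7 and 287.7 TPM (lowest, median and highest) in P278KY mice and at 194.4, 225.6 and 244.7 TPM in WT mice, and it carried on average 24.7% of all Hox TPM. Only 1.33% of all genes in the tables had a higher mean. Hoxa7, which helps to pattern the thoracic skeleton, was next in each of the 12 mice, at 68.36, 73.66 and 80.15 TPM in P278KY mice and 62.81, 65.47 and 74.38 TPM in WT mice. Below these, ranks changed from mouse to mouse: Hoxd8 (mean 53.4 TPM) and Hoxa9 (53.1 TPM) each took ranks 3 to 6, Hoxb6 (49.8 TPM) ranks 4 to 8 and Hoxb9 (49.7 TPM) ranks 3 to 8, so their order is not resolved by these mice.

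The promoters of Hoxb8 and of Hoxa13, a terminal paralog of limb and urogenital development that was near the bottom of the range, show the 2 ends of the base composition met among the 21 members in the promoter table. Each sequence runs from 250 bases before to 50 after the gene's start in RefSeq (GRCm38.p6), and capitals mark CpG dinucleotides.
Hoxb8, chr11:96281655-96281954, plus strand: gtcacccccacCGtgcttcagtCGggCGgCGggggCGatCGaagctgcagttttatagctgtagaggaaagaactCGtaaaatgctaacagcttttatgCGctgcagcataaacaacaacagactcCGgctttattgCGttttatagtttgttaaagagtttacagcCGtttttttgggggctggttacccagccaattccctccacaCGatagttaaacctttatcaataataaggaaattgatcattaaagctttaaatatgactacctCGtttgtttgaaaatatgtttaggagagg
Hoxa13, chr6:52260831-52261130, minus strand: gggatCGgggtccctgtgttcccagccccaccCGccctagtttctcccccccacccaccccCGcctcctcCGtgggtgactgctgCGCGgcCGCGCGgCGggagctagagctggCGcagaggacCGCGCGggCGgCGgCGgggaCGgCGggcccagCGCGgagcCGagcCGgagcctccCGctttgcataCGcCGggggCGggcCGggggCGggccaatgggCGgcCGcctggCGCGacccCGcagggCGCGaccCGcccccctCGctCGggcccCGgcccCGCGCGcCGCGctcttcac
The Hoxb8 window is 42.33% G and C, the lowest of the 23 windows in the table for these members, and holds 13 CpG. The Hoxa13 window is 81% G and C and holds 45 CpG, both the highest of the 23.

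The table of promoters held 23 windows for 21 of the 38 members. Their median was 15 CpG and 58% G and C, against 7 CpG and 52.7% over all 32851 windows in the table. The hexamer TTTATG, to which caudal-type (Cdx) homeodomain proteins bind, was found on either strand in 4 of the 23 Hox windows (17.4%), those of Hoxa7, Hoxb8, Hoxd3 and 1 of 2 for Hoxd11, and in 11.8% of all windows. The hexamer TATAAA was found in 3 of the 23 (13.04%), those of Hoxb8, Hoxd13 and 1 of 2 for Hoxa10, and in 13.6% of all windows. Both hexamers were searched on both strands, and they can overlap each other.

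Within HoxA (11 members, all on the minus strand), Hoxa7 was followed by Hoxa9, at 44.62, 56.84 and 63.79 TPM in P278KY mice and 41.80, 50.04 and 56.67 TPM in WT mice. Hoxa5, which phrenic motor neurons need, averaged 29.2 TPM over the 12 mice and Hoxa10, a lumbar determinant, 26.2 TPM. Hoxa6 (17.6 TPM), Hoxa3 (12.4 TPM), Hoxa4 (8.04 TPM), Hoxa2 (3.47 TPM) and Hoxa11 (3.09 TPM) were lower. Hoxa13 averaged 0.588 TPM.

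In HoxB (10 members), levels dropped from Hoxb8 to Hoxb6 and Hoxb9 and then to Hoxb7, at 35.2 TPM on average. Hoxb5, which had the highest mean over the 12 mice among the paralogs 4 and 5 (29.9 TPM, against 29.2 TPM for Hoxa5), lay at 30.12, 30.90 and 35.21 TPM in P278KY mice and at 26.83, 28.12 and 29.71 TPM in WT mice. In P278KY mice alone Hoxa5 had the higher median, 31.88 TPM against 30.90 TPM for Hoxb5. The Hoxb5 ranges of the genotypes did not overlap in TPM, and the share of all genes that did so in TPM was not counted. By limma on log2(TPM + 1) the median log2 change over all tested genes was 0.062. In CPM (counts relative to the scaled library total) no Hox gene had all P278KY mice above or all below the WT mice. Of all tested genes 1.73% lay wholly above and 2% wholly below in CPM. Hoxb3 averaged 19.4 TPM, Hoxb2 13.6 TPM, Hoxb4 7.35 TPM and the terminal gene Hoxb13 1.13 TPM. Hoxb1, an early hindbrain gene, was at 0.06 to 0.23 TPM in P278KY mice and 0 to 0.10 TPM in WT mice.

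In HoxC (9 members), the peak was not in the middle of the numbers alone. Hoxc10, a determinant of lumbar motor neurons, had the highest mean over the 12 mice in the cluster (40.9 TPM) and was the most abundant of the paralogs 10 to 13, at 34.10, 41.16 and 45.79 TPM in P278KY mice and 26.85, 42.83 and 47.23 TPM in WT mice. Its neighbour Hoxc9, which defines thoracic motor columns, averaged 12.5 TPM, lower than Hoxc10 in each of the 12 mice, while Hoxc8 averaged 39.01 TPM and lay above Hoxc10 in 5 of the 12 mice, 4 of them P278KY. Hoxc6, a gene of forelimb motor neurons, averaged 28.5 TPM. Hoxc4 (12.2 TPM), Hoxc12 (5.17 TPM), Hoxc11 (4.90 TPM), Hoxc5 (4.90 TPM) and Hoxc13 (1.48 TPM) were lower.

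In HoxD (8 members), Hoxd8 led at 53.48, 55.19 and 58.61 TPM in P278KY mice and 44.43, 51.80 and 53.52 TPM in WT mice. The Hoxd3 row came next, and was the most abundant of the paralogs 1 to 3, at 44.87, 47.76 and 52.70 TPM in P278KY mice and 37.85, 43.45 and 46.92 TPM in WT mice. That row also counts another gene: of its 9 transcripts, 3 are listed under Hoxd4 and 1 under Gm28230 in GENCODE M21, and Hoxd4 has no row of its own, so the levels of Hoxd3 and Hoxd4 cannot be told apart. The rows of Hoxa3 and Hoxd11 hold 1 such transcript each, of 5 and 3. Hoxd9 averaged 18.0 TPM, Hoxd11 16.1 TPM, Hoxd10, which acts with Hoxc10 in lumbar motor neurons, 14.4 TPM, and Hoxd1 1.86 TPM. Hoxd13, a digit gene, averaged 0.187 TPM and Hoxd12 0.0108 TPM.

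The clusters also hold noncoding genes. Of 38 such genes inside the 4 clusters 13 had enough counts to be tested, and the tests of edgeR, DESeq2 and limma described below called none of them for genotype, where they called 5.32%, 8.99% and 8.93% of all tested genes (0, 0 and 1 of the 13 had an unadjusted p under 0.05, where 20.2% of all tested genes did by edgeR). The most abundant with enough length to be measured were Gm15051 in HoxA (18.58 to 28.59 TPM over the 12 mice), Gm53 and Hoxb3os in HoxB (mean 22.1 and 12.1 TPM), Hotair in HoxC (1.82 TPM) and 1700109F18Rik and 6720416L17Rik in HoxD (17.4 and 9.10 TPM). HOTAIRM1_5 in HoxA (mean 25.3 TPM) and HOTAIR_4 in HoxC (1.24 TPM) are fragments with mean effective lengths of 19.3 and 42.1 bases, so their TPM rest on few counts. The 6 microRNA genes of the clusters were listed at 0 in every mouse, in libraries made from polyadenylated RNA. Several of these genes lie antisense to Hox genes, the strand setting of the counting is not given in the sources used here, and reads of such pairs may have been shared.

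Spread between mice was like that of other genes for most members. The biological coefficient of variation (BCV, the spread between mice beyond counting error as edgeR estimates it) had a median of 0.120 over the 36 tested Hox genes, against 0.118 over all 17980 tested genes. It lay below the trend for genes of like abundance in 29 of 36 Hox genes (80.6%), against 89.5% of all tested genes. The lowest BCV were those of Hoxb8 (0.0694), Hoxa7 (0.0726) and Hoxb5 (0.0758), for which the highest mouse had 1.48, 1.28 and 1.31 times the TPM of the lowest. By the SD of log2(TPM + 0.1) within groups the lowest were Hoxb5 (0.0590), Hoxa3 (0.0754) and Hoxa7 (0.0838), with Hoxb8 at 0.0943. The highest BCV were those of Hoxb13 (0.970), Hoxa13 (0.835) and Hoxc13 (0.531), all terminal paralogs.

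**Figure D2:**
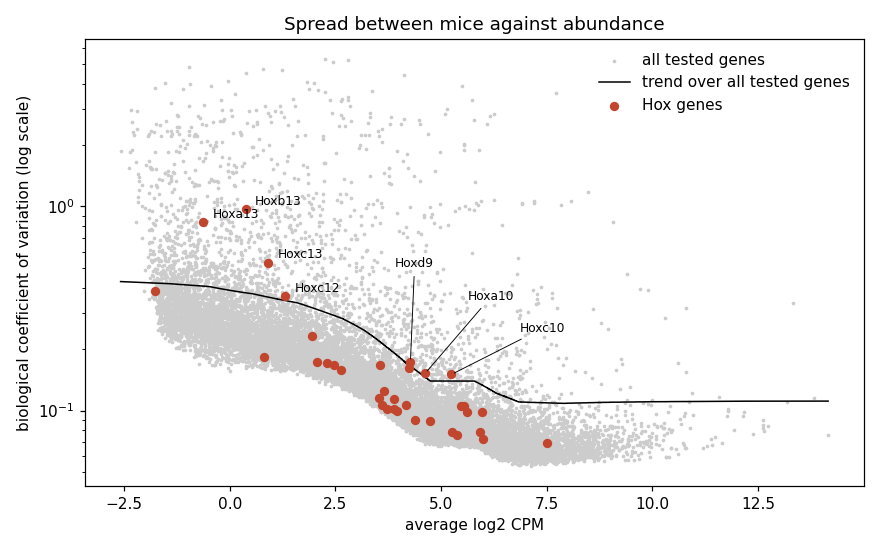
Biological coefficient of variation on a log axis against average log2 CPM, with all 17980 tested genes in grey, 35 of the 36 tested Hox genes in red and the trend over all genes as a line. The 7 named genes lie above the line: Hoxa13, Hoxb13 and Hoxc13 farthest from it, and Hoxa10, Hoxc10, Hoxc12 and Hoxd9 nearer.

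The 7 Hox genes above the trend fell into 2 sets by the mice in which they were lowest. For Hoxa13, Hoxb13, Hoxc12 and Hoxc13 these were P278KY female 4 and P278KY male 8. Hoxa13 was at 0.03 TPM in P278KY female 4 and 0 in P278KY male 8 (1 and 0 counts), against 0.59 to 1.11 TPM in the other 4 P278KY mice and 0.28 to 1.19 TPM in the 6 WT mice. Hoxb13, which acts at the tail end of the body, was at 0.06 TPM and 0 in those mice (2 and 0 counts), against 1.28 to 1.55 TPM in the other 4 P278KY mice and 0.46 to 2.34 TPM in WT mice. In P278KY male 8 a count of 0 allows up to 0.195 TPM of Hoxa13 and 0.0935 TPM of Hoxb13 (3 counts, counting error only), both below every one of the 10 mice other than these.

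Hoxc13, known for its role in hair, was at 0.54 TPM in P278KY female 4 and 0.19 TPM in P278KY male 8, against 1.16 to 2.41 TPM in the other P278KY mice and 1.19 to 2.48 TPM in WT mice. Hoxc12 was at 2.82 and 2.09 TPM in them, against 5.65 to 7.74 TPM in the other P278KY mice and 3.96 to 6.60 TPM in WT mice. Hoxc11 was at 4.41 and 3.63 TPM, against 5.22 to 5.49 TPM in the other P278KY mice and 4.52 to 5.51 TPM in WT mice. The gap thus narrowed from paralog 13 to paralog 11 within HoxC. The noncoding gene Hotair, which lies between Hoxc11 and Hoxc12, was also lowest in these mice, at 0.84 and 1.21 TPM, against 1.41 to 2.49 TPM in the other 10.

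**Figure D3:**
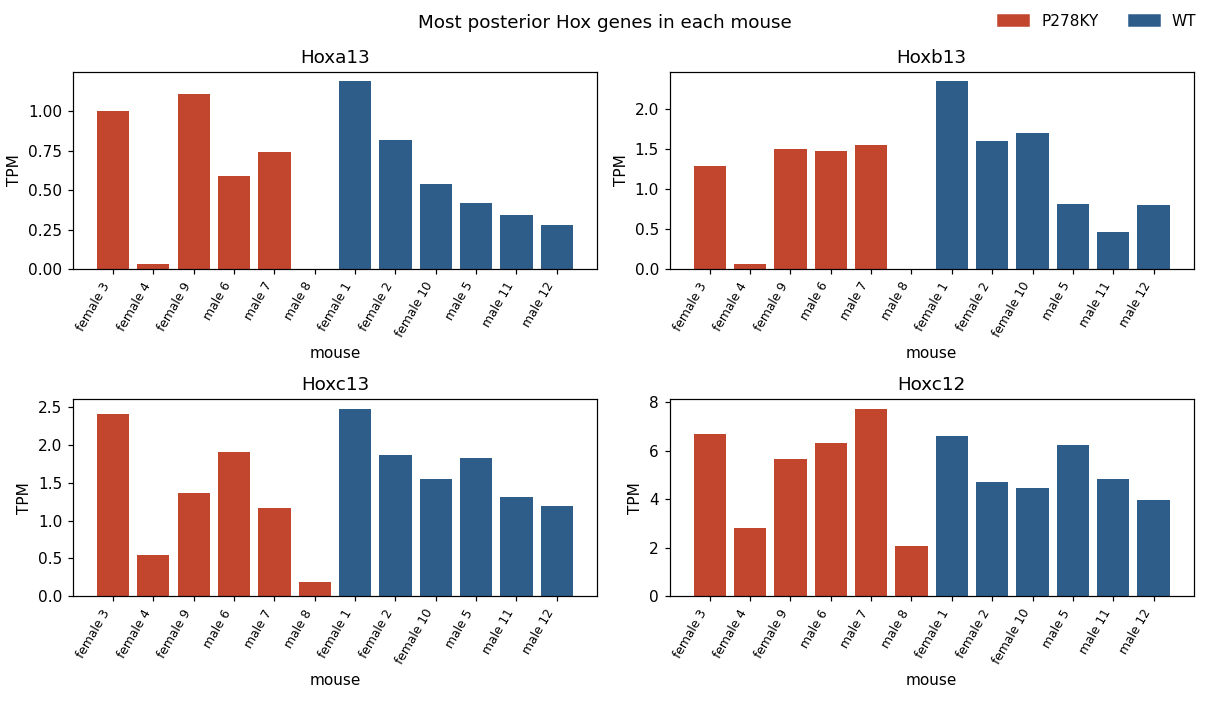
TPM of Hoxa13, Hoxb13, Hoxc13 and Hoxc12 in each of the 12 mice, 1 bar per mouse, P278KY (red) left of WT (blue). P278KY female 4 and P278KY male 8 are the lowest 2 mice in all 4 panels, at 0.03 and 0 TPM for Hoxa13 and 0.06 and 0 TPM for Hoxb13.

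Hoxa10, Hoxa11, Hoxc10, Hoxd10 and Hoxd11 did not have both mice below the other 10. Hoxc10 was at 42.16 TPM in P278KY female 4 and 39.76 TPM in P278KY male 8, against 34.10 to 45.79 TPM in the other 4 P278KY mice and 26.85 to 47.23 TPM in WT mice. Hoxa10 was at 25.20 and 25.36 TPM in them, against 21.71 to 29.49 TPM in the other P278KY mice and 17.37 to 31.86 TPM in WT mice. For these 2 genes both mice lay inside the range of each genotype. Hoxd11 was at 14.15 and 14.89 TPM in them, below the 15.86 to 19.41 TPM of the other P278KY mice and inside the 11.21 to 20.75 TPM of WT mice. Hoxd10 was at 16.60 TPM in female 4 and 12.12 TPM in male 8, against 13.64 to 17.02 TPM in the other P278KY mice and 10.23 to 17.30 TPM in WT mice. Hoxa11 was at 3.62 TPM in female 4 and 2.09 TPM in male 8, against 2.23 to 3.86 TPM in the other P278KY mice and 2.09 to 3.63 TPM in WT mice. Male 8 was thus below the other P278KY mice for these 3 genes, and female 4 for Hoxd11. Hoxd13 had 7 and 1 counts in these mice and 3 to 11 in the other 10, too few to place them.

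P278KY female 4 and P278KY male 8 were the lowest pair of mice for 5 of the 36 tested Hox genes (Hoxa13, Hoxb13, Hoxc11, Hoxc12 and Hoxc13) and for 121 of all 17980 tested genes (0.673%). The pair was chosen after these values were seen, so the count is a description. Both are P278KY mice, 1 of each sex, with 31029938 and 30030369 expected counts. Their summed muscle markers were 1870 and 365.0 TPM. Female 4 was thus below mice 1 to 3 (3142 to 11879 TPM) and above all of mice 5 to 12 (200.9 to 490.2 TPM). The part of muscle RNA in these Hox levels was not tested. Their summed neural and glial markers were 26220 and 26098 TPM, inside the range of the other 10 mice. The Evx genes, which lie beside HoxA and HoxD, summed to 2.51 and 1.98 TPM in them, against 1.13 to 2.02 TPM in the other 10.

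The other genes above the trend, Hoxd9, Hoxa10 and Hoxc10, varied together and were lowest in WT female 1. Being lowest there was not particular to them: the same held in TPM for many other members, among them Hoxa7, Hoxa9, Hoxb8, Hoxd3 and Hoxd8. WT female 1 also had the lowest summed Hox level (815.7 TPM), though not the lowest sum of paralogs 4 and 5. Hoxd9 was at 14.43 to 20.61 TPM in P278KY mice and 17.38 to 22.01 TPM in the 5 WT mice other than WT female 1, which had 11.46 TPM. Hoxa10 was at 17.37 TPM and Hoxc10 at 26.85 TPM in WT female 1, against 26.65 to 31.86 TPM and 40.80 to 47.23 TPM in the other 5 WT mice. WT female 1 was also the mouse with the most muscle RNA, 11879 TPM summed against 200.9 to 4623 TPM in the other 11, and the part of this in the Hox levels was not tested. Hoxa13, Hoxb13 and Hoxc13 were highest in the same mouse, at 1.19, 2.34 and 2.48 TPM.

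**Figure D4:**
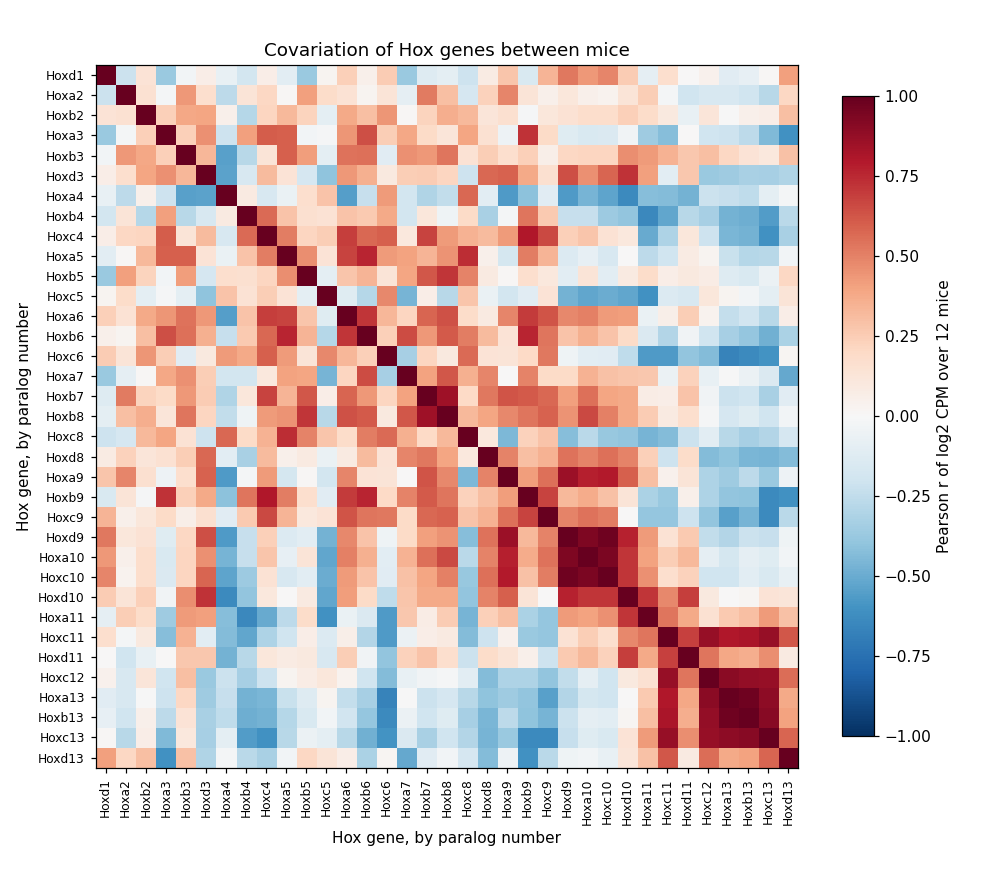
Pearson correlation of log2 CPM over the 12 mice for each pair of 35 of the 36 tested Hox genes, in order of paralog number, red for positive and blue for negative. Blocks of high correlation appear for Hoxd9, Hoxa10 and Hoxc10 (r of 0.93 to 0.97) and for the terminal paralogs, with P278KY female 4 and P278KY male 8 included.

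Covariation was then measured between the genes with the highest mean over the 12 mice in 4 bands, Hoxb5, Hoxb8, Hoxa9 and Hoxc10, as 6 pairs over the 12 mice in log2 CPM, with permutation tests adjusted over the 6 pairs by the Benjamini-Hochberg method. Hoxa9 and Hoxc10 varied together (Pearson r = 0.80, permutation p = 0.00225, adjusted p = 0.0135; Spearman rho = 0.73, permutation p = 0.0101, adjusted p = 0.0605). The r was 0.52 without the 2 mice farthest from the median, WT female 1 and WT female 10, and 0.94 within P278KY mice and 0.80 within WT mice. Hoxb5 and Hoxb8, both in HoxB, also varied together (r = 0.71, permutation p = 0.0146, adjusted p = 0.0437; rho = 0.64, permutation p = 0.0308, adjusted p = 0.0925). That r was 0.56 without P278KY male 6 and WT female 2, 0.72 within P278KY mice and 0.60 within WT mice.

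The other pairs did not pass, and no pair passed by rho after adjustment. Hoxb5 and Hoxc10 had r = -0.11 (permutation p = 0.716, adjusted p = 0.859; rho = -0.31, permutation p = 0.319), and Hoxb5 and Hoxa9 had r = 0.013 (permutation p = 0.968, adjusted p = 0.968; rho = -0.20, permutation p = 0.542). Hoxb8 had r = 0.48 with Hoxa9 (permutation p = 0.113, adjusted p = 0.169; rho = 0.29, permutation p = 0.354) and r = 0.50 with Hoxc10 (permutation p = 0.106, adjusted p = 0.169; rho = 0.035, permutation p = 0.921). Without WT female 1 and P278KY male 6 these 2 values were 0.24 and 0.015.

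A further 9 pairs were chosen after their values were seen, and their tests restate what chose them. Hoxd9 and Hoxc10 had r = 0.97 and rho = 0.94, with r = 0.90 without WT female 1 and P278KY female 3, 0.95 within P278KY mice and 0.98 within WT mice (both permutation p = 1e-05, the smallest that 100000 resamples give, and adjusted p = 9e-05 over the 9 pairs). Hoxa10 had r = 0.93 with Hoxd9 (rho = 0.78) and r = 0.95 with Hoxc10 (rho = 0.83), which without the 2 farthest mice were 0.73 and 0.85 (permutation p = 0.00011 and 4e-05 for r, 0.00432 and 0.00138 for rho). Among the terminal genes, over the 10 mice without P278KY female 4 and P278KY male 8, Hoxa13 and Hoxb13 had r = 0.82 (permutation p = 0.00276, adjusted p = 0.00621; rho = 0.65, permutation p = 0.0478, adjusted p = 0.108). That r was 0.86 within the 6 WT mice and 0.20 within the 4 remaining P278KY mice, and 0.75 without WT males 11 and 12. The other 5 pairs among Hoxa13, Hoxb13, Hoxc12 and Hoxc13 had r of 0.31 to 0.51 with adjusted permutation p of 0.236 to 0.391.

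Between the genotypes, Hox levels differed little. Rounded expected counts were tested with edgeR's quasi-likelihood method, with sex as a covariate, and p-values were adjusted over all 17980 tested genes by the Benjamini-Hochberg method. None of the 36 tested Hox genes passed the adjusted threshold of 0.05, where 5.32% of all tested genes did (2.36% higher in P278KY). At an unadjusted p under 0.05 there were 6 (Hoxa3, Hoxa5, Hoxb3, Hoxb6, Hoxb7 and Hoxb9), all higher in P278KY, where 9.79% of all tested genes were higher and 20.2% differed in either direction at that level. The Wald test of DESeq2 called 1, Hoxa5 (adjusted p = 0.0219), where it called 3.99% of all tested genes higher and 8.99% in all. On log2(TPM + 1) values limma called 6 (Hoxa5, Hoxb5, Hoxb6, Hoxb7, Hoxb8 and Hoxb9), all higher in P278KY, where it called 7.55% of all tested genes higher and 8.93% in all, and its median log2 change over all tested genes stood at 0.062. With a pseudocount of 0.1 it called the same 6 genes, where it called 7.64% higher and 9.02% in all.

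The fitted log2 changes of the 36 genes ran from -0.50 (Hoxc13) to 0.20 (Hoxa5), with a median of 0.04, against a median of -0.003 over all tested genes. They were above 0 for 23 of the 36 (63.9%), against 48.9% of all tested genes. Paralogs 6 to 8 were above 0 in 8 of 8, with a median of 0.09, and paralogs 4 and 5 in 5 of 6, with a median of 0.08. Paralogs 10 to 13 were above 0 in 2 of 11, with a median of -0.07. These counts are descriptions, since genes of a cluster share their surroundings and mice.

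**Figure D5:**
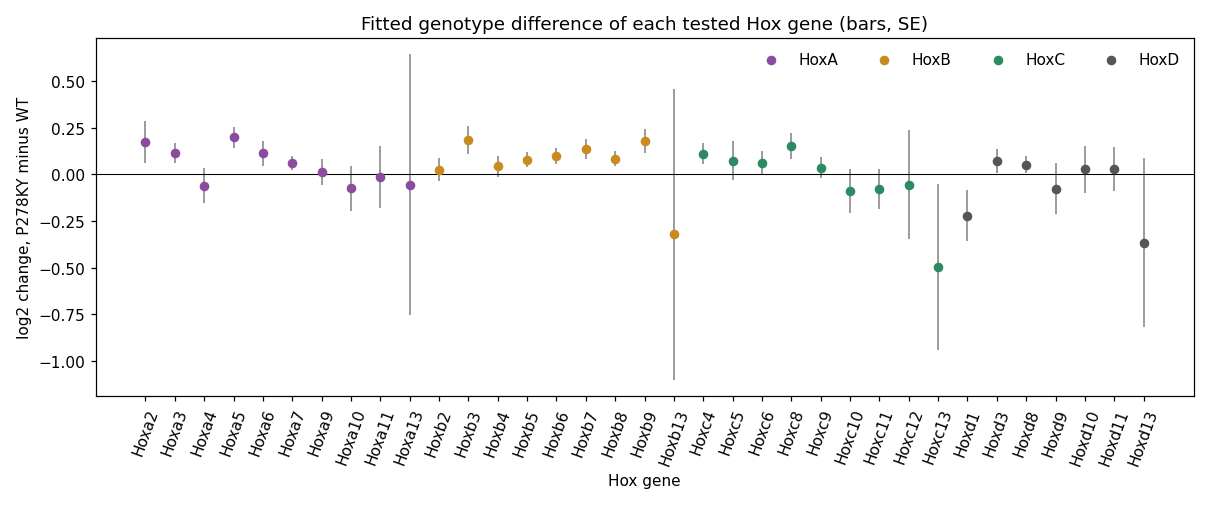
Fitted log2 change, P278KY minus WT, of 35 of the 36 tested Hox genes in cluster order, coloured by cluster, with bars of 1 SE and a line at 0. Values range from -0.50 for Hoxc13 to 0.20 for Hoxa5, and the bars are widest for the terminal paralogs Hoxa13 and Hoxb13.

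Hoxa5 had the smallest P. It was at 28.06, 31.88 and 36.31 TPM in P278KY mice and 23.28, 26.54 and 28.48 TPM in WT mice, with 1 P278KY mouse, female 9, below the highest WT mouse, female 2. In CPM, 5 of the 6 P278KY mice lay above the highest WT mouse. The fitted log2 change was 0.20 (SE 0.06, adjusted p = 0.0552 in the edgeR test), a fold of 1.15, and the exact two-sided permutation p was 0.0108 over all regroupings of the 12 mice, unadjusted and without regard to sex. The edgeR adjusted p was 0.0408 without WT female 2 and 0.0379 without P278KY female 9, the 2 mice that overlapped. With any other single mouse left out it was 0.0504 to 0.133. Hoxa5 lies within the span of Hoxa3 and opposite the antisense gene 2700086A05Rik, which had a log2 change of -0.01 (SE 0.13).

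Hoxb9, which acts with its paralogs in thoracic identity, was at 42.23, 54.88 and 60.59 TPM in P278KY mice and 41.69, 45.04 and 49.23 TPM in WT mice. In CPM 5 of the 6 P278KY mice lay above every WT mouse, the exception being P278KY female 3, and the log2 change was 0.18 (SE 0.06, edgeR adjusted p = 0.132, exact permutation p = 0.0519). Without P278KY female 3, that exception, the edgeR adjusted p was 0.0192. With any other single mouse left out it was 0.125 to 0.264. Without mice 1 to 4, those with the most muscle RNA, the log2 change was 0.25. Hoxb7 was at 34.41, 37.70 and 40.42 TPM in P278KY mice and 29.20, 32.48 and 36.38 TPM in WT mice, with overlapping ranges and a log2 change of 0.14 (SE 0.05, edgeR adjusted p = 0.154, exact permutation p = 0.0476).

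Hoxb3 was called in 1 of the fits that left out a mouse. It was at 16.86, 21.32 and 21.86 TPM in P278KY mice and 17.22, 18.20 and 18.91 TPM in WT mice, with P278KY male 8 below all other mice. Its log2 change was 0.18 (SE 0.08, edgeR adjusted p = 0.190), and without P278KY male 8 its edgeR adjusted p was 0.0354. With any other single mouse left out it was 0.209 to 0.339. Hoxb8 itself had a log2 change of 0.08 (SE 0.04, edgeR adjusted p = 0.260) and Hoxa7 one of 0.06 (SE 0.04, edgeR adjusted p = 0.418).

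For 3 of the 4 most variable terminal genes the direction changed with the mice included. With all 12 mice the log2 changes were -0.05 (SE 0.70) for Hoxa13, -0.32 (SE 0.78) for Hoxb13, -0.05 (SE 0.29) for Hoxc12 and -0.50 (SE 0.45) for Hoxc13. Without those 2 mice they were 0.52, 0.28, 0.28 and -0.06, with edgeR adjusted p of 0.414, 0.718, 0.457 and 0.938, so that the first 3 turned sign. Leaving out WT female 1 alone also turned Hoxa13 (0.20) and Hoxc12 (0.04), and leaving out WT male 5 turned Hoxc12 (0.02). No difference between genotypes was detectable at this depth and spread for these genes.

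Sex and its interaction with genotype gave no call among the Hox genes. By edgeR's quasi-likelihood test 0 of 36 Hox genes differed between females and males after adjustment, where 0.089% of all tested genes did, and 5 had an unadjusted p under 0.05, where 8.95% of all tested genes did. The smallest was that of Hoxb8, with a female minus male log2 difference of -0.13 (edgeR adjusted p = 0.376). Mice 1 to 4, which had the most muscle RNA, were all female. For sex, 14 of the 15 skeletal muscle genes had an unadjusted edgeR p under 0.05. Sex and muscle RNA thus cannot be fully told apart in these mice. For the interaction the edgeR test called 0 of all tested genes (0%), and 0 Hox genes had an unadjusted p under 0.05, where 3.70% of all tested genes did. For sex and the interaction edgeR alone was run. The genotype change had the same sign in females and males for 22 of the 36 genes, and Hoxa5 had log2 changes of 0.21 in females and 0.19 in males.

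HoxA lies on the chromosome of the mutated gene, 2.777 Mb from Gars. Gars itself was at 140.6 ± 2.95 CPM in P278KY mice and 128.7 ± 6.52 CPM in WT mice (SD, n = 6 each). Within 5 Mb of Gars 4 of 74 tested genes (5.41%) were called for genotype, Adcyap1r1, Gars, Nap1l5 and Tax1bp1, near the 5.32% over all tested genes. None of the 11 HoxA genes there was called, with 6 of 11 above 0 and a median log2 change of 0.02.

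The partners of Hox proteins were present at levels like those of the Hox genes. Of the 9 TALE cofactors of the Pbx, Meis and Pknox families all averaged over 10 TPM, from 14.8 TPM for Pknox1 to 39.3 TPM for Pbx2. None passed the adjusted edgeR threshold or the Wald test of DESeq2, where 5.32% and 8.99% of all tested genes did. On log2(TPM + 1) values limma called 2 higher (Meis1 and Meis3), where it called 7.55% of all tested genes higher. The median log2 change of the 9 was 0.08. At an unadjusted edgeR p under 0.05, Meis1 (0.13, SE 0.05), Meis3 (0.10, SE 0.04) and Pbx4 (0.22, SE 0.09) were higher in P278KY, where 9.79% of all tested genes were.

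Of 13 embryonic regulators of the clusters 4 averaged under 1 TPM, among them the Cdx genes, and the others averaged 1.75 to 18.8 TPM. The Cdx genes, which open the posterior clusters in the embryo, were listed at 0 (Cdx2 and Cdx4) or averaged 0.00667 TPM (Cdx1). Of these regulators 9 were tested and 1 fell by edgeR, where 2.95% of all tested genes did: Gdf11, a secreted factor that sets the onset of posterior Hox genes in the embryo. Gdf11 averaged 17.9 ± 1.07 TPM in P278KY mice and 19.7 ± 0.721 TPM in WT mice (SD, n = 6 each), with a log2 change of -0.22 (SE 0.04, edgeR adjusted p = 0.00485). DESeq2 called Gdf11 too, and limma on log2(TPM + 1) called none of the 9. The retinoic acid receptor genes Rara (-0.25, SE 0.10), Rarb (-0.04, SE 0.06) and Rarg (-0.09, SE 0.10) did not pass.

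Among 19 Polycomb, Trithorax and boundary genes that act on Hox clusters, Kmt2a rose and none fell by edgeR, where 2.36% of all tested genes rose, and the median log2 change was 0.07. DESeq2 called Kmt2a and Kmt2b higher, where it called 3.99% of all tested genes higher, and limma called Jarid2, Kdm6a, Kmt2a and Kmt2b higher, where it called 7.55%. Kmt2a, the methyltransferase of the Trithorax group that keeps Hox genes active, averaged 27.3 ± 1.93 TPM in P278KY mice and 22.0 ± 1.83 TPM in WT mice (SD, n = 6 each), with a log2 change of 0.26 (SE 0.05, edgeR adjusted p = 0.0128). The Polycomb methyltransferase genes Ezh1 (0.06, SE 0.04) and Ezh2 (0.02, SE 0.09) and the boundary gene Ctcf (0.10, SE 0.04) did not pass. The Evx genes, homeobox genes beside HoxA and HoxD, averaged 1.24 TPM (Evx1) and 0.561 TPM (Evx2), and neither passed by edgeR, DESeq2 or limma, at an unadjusted p under 0.05 either.

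Some genes fell on a list that joins general motor neuron genes to factors of the motor columns and pools, which Hox proteins set out in the embryo. By edgeR 5 of 17 fell, where 2.95% of all tested genes did, and none rose: Lhx4 (log2 change -0.70, SE 0.09, edgeR adjusted p = 0.000974), Ret (-0.21, SE 0.03, adjusted p = 0.00176), Gfra1 (-0.23, SE 0.04, adjusted p = 0.00456), Slc5a7 (-0.36, SE 0.08, adjusted p = 0.0196) and Chat (-0.55, SE 0.12, adjusted p = 0.0241). Lhx4 encodes a motor neuron transcription factor, Ret and Gfra1 the receptor for GDNF, and Slc5a7 and Chat the choline transporter and the enzyme of acetylcholine synthesis. Of the transcription factors on the list, only Lhx4 passed by edgeR. DESeq2 called the same 5 and Etv4 lower and Lhx1 higher, and limma called Chat, Lhx4 and Slc5a7 lower and Lhx1 higher, without Ret and Gfra1. Foxp1, the Hox accessory factor of limb motor columns, had a log2 change of -0.01 (SE 0.06), and Lhx1 one of 0.28 (SE 0.09, edgeR adjusted p = 0.0761). The median of the 17 was -0.23, against 0.04 for the Hox genes and -0.003 for all tested genes.

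Markers of tissue around the cord, some of which cord cells may also express, differed between libraries and genotypes too. By edgeR 5 of 10 Schwann cell genes fell, where 2.95% of all tested genes did, with summed levels of 1092 to 2363 TPM in P278KY mice and 2277 to 3326 TPM in WT mice. Of 12 sensory ganglion genes P2rx3 rose (log2 change 1.81), where 2.36% of all tested genes did, and Prph fell (-0.87). Their sums were 66.18 to 139.6 TPM in P278KY mice and 67.57 to 121.8 TPM in WT mice. Prph alone averaged 62.9 TPM over the 12 mice and 5 of the genes averaged under 1 TPM, so these sums do not measure ganglion tissue. Of 8 fibroblast and meninges genes 1 fell. Of 15 skeletal muscle genes none passed by edgeR, DESeq2 or limma (0, 1 and 0 at an unadjusted p under 0.05). Among the hindbrain markers 1 of 8 tested, Fev, rose by edgeR, where 2.36% of all tested genes did. None of 3 tested forebrain and midbrain markers passed by edgeR, DESeq2 or limma (1, 1 and 2 at an unadjusted p under 0.05). The part of these tissues in the Hox levels was not tested.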

How the data were processed

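Per the submitters' processing notes, Bowtie2 2.2.0 and RSEM 1.2.12 were used, and the authors deposited 1 table per mouse; for these tables the sources used here give no build, annotation or strand setting. Libraries were stranded, made from polyadenylated RNA and read as 75 bp pairs, per the labels. The deposited expected counts are RSEM's estimated counts, which share reads that match several genes. TPM, as the authors deposited it, is scaled for transcript length and library total. FPKM, as the authors deposited it, served only as an alternative. Expected counts were rounded, filtered with filterByExpr over the 4 groups, scaled by TMM and fitted as sex plus genotype with edgeR 4.0.16 in R 4.3.3, with limma 3.58.1 and DESeq2 1.42.0 as alternatives; the test was checked on simulated data. SE is the log2 change over the root of F. Log2 CPM used a prior count of 2. Nothing says that mice of a group came from separate litters, so p-values measure the spread between these samples. One member is counted but not reported singly here. Positions are from GENCODE M21 (GRCm38), which matched 37607 of 38924 genes. The members, lists and tests were chosen with earlier results of these data known. Named were the leading gene of each cluster and band, the 3 smallest P, the 3 most and least variable, called list genes and the leading noncoding genes; the other members are given by level, and those described further were chosen after their values were seen.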

Additional observations from a re-analysis of the deposited data

Results flagged for a closer look

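In each genotype of 6 mice, the gap between the lowest or highest mouse and its neighbour was set against the range of the group (Dixon's test, critical value 0.625). Over 74 such groups of Hox values 8 were past it, and chance flags about 1 in 20 groups. WT female 1 was far below the other WT mice for Hoxa10 (17.37 TPM, others 26.65 to 31.86), Hoxc10 (26.85 TPM, others 40.80 to 47.23) and Hoxd8 (44.43 TPM, others 50.71 to 53.52). P278KY male 6 was far above the other P278KY mice for Hoxb5 (35.21 TPM, others 30.12 to 30.98) and for Hoxb1 (0.23 TPM, others 0.06 to 0.10). P278KY male 8 was far below for Hoxb3 (16.86 TPM, others 21.08 to 21.86) and P278KY female 3 for Hoxb9 (42.23 TPM, others 54.35 to 60.59). WT male 11 was above the other WT mice for Hoxb1 (0.10 TPM, others 0 to 0.03). The low values of P278KY female 4 and P278KY male 8 for Hoxa13 and Hoxb13 did not meet this rule, since 2 low mice of a group hide each other in it.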

How the results depend on the processing

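No paired analysis was possible because the mouse numbers are not shared between groups. The count of Hox genes called for genotype was 0 in the edgeR fits with other size factors, filters, no rounding, no sex term or 1 sex. It was 1 with the Wald test of DESeq2, 6 with limma on log2(TPM + 1) or log2(TPM + 0.1), 1 without mice 1 to 4, and 0 to 1 with 1 mouse left out. The Hox median was 0.04, 0.036 to 0.068 with 1 mouse left out, and 0.106 and 0.115 with limma, where the median of all tested genes was 0.062 and 0.073. Over all genes 956 were called, against 103 in females, 279 in males, 1617 with DESeq2, 1606 and 1622 with limma, 557 without mice 1 to 4, 253 without mice 7, 10 and 11, 427 without mice 4 and 8, and 542 to 1385 with 1 mouse left out; the fits on fewer mice have fewer samples, and the cause of the other moves was not tested. The sign turned in males for Hoxa13 (0.39) and Hoxb13 (0.44), without mice 1 to 4 for Hoxa13 (0.56), Hoxb13 (0.26) and Hoxc12 (0.069), and without mice 4 and 8, chosen after seeing the data, for Hoxa13 (0.52), Hoxb13 (0.28) and Hoxc12 (0.28). With 1 mouse left out these changes ran from -0.28 to 0.26, -0.58 to 0.019 and -0.21 to 0.11. The r of Hoxb5 and Hoxc10 was 0.057 on log2(TPM + 0.1). Members at 1 TPM or more numbered 33, against 35 at 0.5 TPM and 26 at 5 TPM. At under 1 TPM, members had few counts, and 3 mice a group limit the interaction.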
